A study of Mus musculus with 4 samples.

Results

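The DNA replication and S phase genes described here are 46 genes taken from a list of symbols, of 49671 genes in the files. They encode the helicase, origin, polymerase, clamp and nucleotide proteins that copy DNA. All 46 symbols were found. RNA was measured in splenic CD3+ T cells of 4 female F1 mus x cast mice in 1 group, in 4 libraries labelled as biological replicates and taken here as 1 mouse each. Their mothers were C57BL/6 females with a heterozygous Xist deletion and their fathers M. m. castaneus (Castaneus) males. The cells were enriched on columns and kept for 48 hours with plate-bound anti-CD3 (1 µg/ml) and soluble anti-CD28 (10 µg/ml), antibodies that stand in for antigen and costimulation, together with 2.5 µM IMD-0354, an inhibitor of the kinase IKKβ and so of NF-κB signalling. Neither unstimulated cells nor cells stimulated without the inhibitor were analysed here, so the values below are levels in 1 condition and carry no effect of stimulation or of the inhibitor.

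Copying of the genome is prepared before S phase begins. The origin recognition complex (ORC) marks origins, and with Cdc6 and Cdt1 it loads the Mcm2 to Mcm7 ring onto DNA. Cdc45, the GINS complex and Mcm10 then turn the ring into a working helicase, polymerase α-primase lays down primers, polymerases ε and δ extend the leading and lagging strands, and the sliding clamp Pcna holds them on DNA. Resting T cells sit outside the cell cycle, and many of these genes are known targets of E2F factors, which switch them on as cells pass from G1 into S phase.

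Levels are given in RPKM, reads scaled by transcript length and by the library's total, which allows genes to be compared. The reads behind the RPKM values were worked out from their whole-number steps and came to 95394534 to 114374064 per library. Reads assigned to an allele numbered 30539711 to 34992012 per library. T cell markers were present, 11 of 11 at 1 RPKM or more, with a summed level of 714 to 797 RPKM per library. Of the markers of other cells, 4 of 6 B cell genes (summed 33.1 to 46.2 RPKM), 3 of 6 myeloid genes (37.1 to 99.4), 4 of 6 erythroid genes (1.91 to 10.5) and 1 of 4 NK cell genes (3.59 to 4.75) reached 1 RPKM, and their part in the levels below was not tested. Eomes made up most of the NK cell sum (3.93 RPKM), with Ncr1 at 0.089, Klra8 at 0.085 and Klrb1c at 0.063 RPKM. In such bulk RNA, fewer cells in S phase and less RNA per cell cannot be told apart.

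Most replication genes were detected, many of them at low levels. Of the 46, 37 (80.4%) had a mean of at least 1 RPKM, the minimum used here for an expressed gene, where 43.0% of 21811 protein-coding genes reached it. The median of these 37 was 5.55 RPKM, where that of all 11453 expressed genes was 6.72 RPKM. With the 9 lower genes included, the median of the 46 was 4.10 RPKM, and 17 of the 46 lay above the median of expressed genes. By rank among expressed genes, 22 of the 46 lay below the 25th percentile or under 1 RPKM, and 2 above the 75th percentile. The 22 include the 9 genes under 1 RPKM, which are not among the expressed genes, so their share is not comparable with 25%. At least 10 RPKM was reached by 11 genes, 17 lay from 1 to under 5 RPKM, and 9 lay under 1 RPKM. The whole range ran 284-fold, from Pcna at 23.9 RPKM to Mcm10 at 0.0842 RPKM. The 9 low genes were Mcm10, Cdc6, Tk1, Orc1, E2f1, Tyms, Gins2, Ccne2 and Pole. These include loading and activation factors, an ORC subunit, nucleotide enzymes and G1/S regulators, and all 6 ring genes, all 3 polymerase δ genes of the list and all 5 clamp loader genes were above 1 RPKM.

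**Figure D1:**
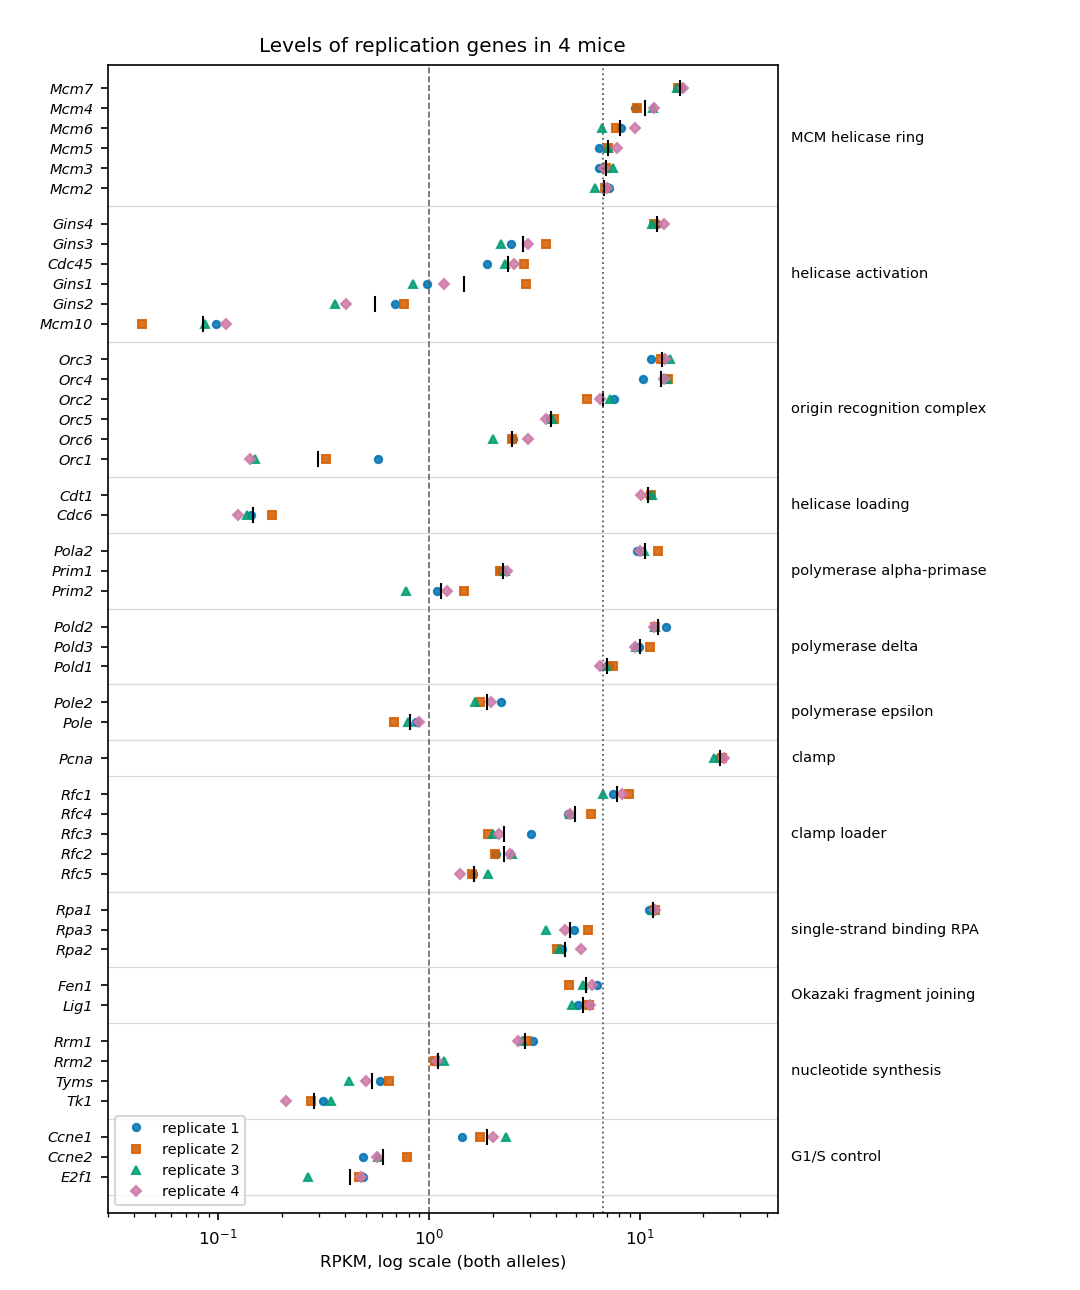
Level of each of the 46 replication genes in RPKM (log axis), grouped by role, with 1 symbol per replicate and a black bar at the mean of 4; the dashed line is 1 RPKM and the dotted line the median of 6.72 RPKM over expressed genes. Pcna stands at the top with 23.9 RPKM, and 9 genes have their mean left of the dashed line.

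The 6 genes of the MCM ring, which form the motor of the helicase in equal numbers, lay within 2.29-fold of each other. Mcm7 was the highest at 15.6, 15.1, 15.1 and 16.1 RPKM in replicates 1 to 4 (15.5 ± 0.489, SD, n = 4). Mcm4 followed at 9.46, 9.65, 11.5 and 11.7 RPKM (10.6 ± 1.18), with no overlap with Mcm7. Mcm6 read 8.17, 7.70, 6.64 and 9.51 RPKM (8.01 ± 1.19), and its highest sample passed the lowest of Mcm4. Mcm5 was at 6.37, 7.09, 7.09 and 7.82 RPKM (7.09 ± 0.594) and Mcm3 at 6.43, 6.93, 7.47 and 6.77 RPKM (6.90 ± 0.434). Mcm2 was the lowest at 7.15, 6.81, 6.14 and 6.98 RPKM (6.77 ± 0.444). The samples of Mcm2, Mcm3, Mcm5 and Mcm6 overlapped, so their order is not fixed by these data. Mcm7 shares small parts of its exons with Cops6 and Ap4m1 on the other strand, 1.45% and 7.25% of its exon bases. The labels do not say whether the counting used strand. Of the 46 genes 18 share exon bases with another gene, among them Orc2 with Nif3l1 (29.8% of its bases), Rfc2 with Lat2 (15.1%) and Rfc4 with the abundant Eif4a2 (12.7%).

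Proteins that activate the loaded ring spanned a much wider range, 143-fold. Gins4, a GINS subunit, was at 12.1, 11.7, 11.5 and 13.0 RPKM (12.04 ± 0.657). The other GINS genes were lower, Gins3 at 2.79 ± 0.613, Gins1 at 1.47 ± 0.949 and Gins2 at 0.553 ± 0.202 RPKM, although the 4 proteins work as 1 complex. Cdc45, the third part of the active helicase, was at 2.38 ± 0.389 RPKM. Mcm10, which is needed for the helicase to start moving, read 0.0978, 0.0436, 0.0864 and 0.109 RPKM, 32 to 87 reads per library. Gins4 and Mcm10 did not come near each other in any sample. For Gins2, 67.3% of the exon bases are shared with Gse1 on the other strand, itself at 12.2 RPKM, so its level is uncertain.

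Among the origin recognition genes, Orc1 stood far below the rest. Orc3 was at 11.3, 12.6, 13.9 and 13.1 RPKM (12.7 ± 1.09), and Orc4 at 10.3, 13.5, 13.4 and 13.1 RPKM (12.6 ± 1.51). Their samples overlapped. Orc2 came next at 6.70 ± 0.858 RPKM, then Orc5 at 3.77 ± 0.136 and Orc6 at 2.48 ± 0.384. Orc1, the ATPase subunit known to be made anew in cycling cells, read 0.576, 0.325, 0.150 and 0.141 RPKM (0.298 ± 0.204), from 51 to 229 reads per library. Every sample of Orc1 was below every sample of the other 5, and the fold from Orc3 to Orc1 ran from 19.6 to 92.9 within single mice.

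The 2 loading factors stood at opposite ends. Cdt1 was at 11.01, 11.35, 11.42 and 10.15 RPKM (10.98 ± 0.582), at the 65.8th percentile of expressed genes. Its partner Cdc6, the ATPase that closes the ring on DNA together with ORC, read 0.144, 0.180, 0.137 and 0.124 RPKM (0.146 ± 0.0243), from 67 to 90 reads per library. Cdt1 exceeded Cdc6 by 62.9-fold to 83.1-fold in each of the 4 mice, with a ratio of the means of 75.1.

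The replicative polymerases differed in level. The list holds 3 genes of polymerase δ and 2 of polymerase ε, and other subunits stand among the pathway genes below. The 3 of polymerase δ were all above the median of expressed genes. Pold2, an accessory subunit, read 13.3, 11.8, 11.8 and 11.6 RPKM (12.1 ± 0.784), Pold3 10.0 ± 0.769, and Pold1, the catalytic subunit, 7.10, 7.42, 6.88 and 6.45 RPKM (6.96 ± 0.408). The 2 polymerase ε genes of the list were lower. The catalytic Pole was at 0.870, 0.681, 0.794 and 0.892 RPKM (0.809 ± 0.0950) and its partner Pole2 at 2.18, 1.74, 1.65 and 1.97 RPKM (1.89 ± 0.237), and no sample of either reached any of these 3 polymerase δ genes. The small polymerase ε subunits outside the list were not low, with Pole3 at 8.41 ± 0.834 and Pole4 at 9.04 ± 1.85 RPKM, both with means above that of Pold1. In polymerase α-primase, the accessory Pola2 was at 9.67, 12.2, 10.4 and 10.1 RPKM (10.6 ± 1.09), while the primase genes Prim1 and Prim2 were at 2.25 ± 0.0829 and 1.14 ± 0.290 RPKM. The fold from Pola2 to Prim2, which reads 1.09, 1.47, 0.775 and 1.21 RPKM, was 9.30.

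Pcna, the sliding clamp, was the highest of the 46 in every replicate, at 23.7, 24.5, 22.5 and 24.9 RPKM (23.9 ± 1.08), at the 85.7th percentile of expressed genes. A processed pseudogene with a similar name, Pcna-ps2, was listed at 1.20 RPKM with 0 allelic reads, so reads may be divided between the pair. The clamp loader, which opens Pcna and places it on DNA, was led by its large subunit Rfc1 at 7.46, 8.87, 6.69 and 8.24 RPKM (7.81 ± 0.946). Rfc4 was at 4.95 ± 0.620, Rfc3 at 2.28 ± 0.521 and Rfc2 at 2.26 ± 0.224 RPKM. Rfc5 was the lowest at 1.62, 1.59, 1.90 and 1.40 RPKM (1.63 ± 0.207).

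Replication protein A (RPA) coats unwound DNA. Its large subunit Rpa1 read 11.04, 11.78, 11.59 and 11.79 RPKM (11.6 ± 0.353), above every sample of Rpa3 (4.65 ± 0.876) and of Rpa2, which read 4.27, 4.05, 4.14 and 5.24 RPKM (4.43 ± 0.554). Samples of the last 2 overlapped. The nuclease Fen1 and the ligase Lig1 finish the lagging strand, and their levels overlapped too. Fen1 was at 6.27, 4.62, 5.39 and 5.93 RPKM (5.55 ± 0.719) and Lig1 at 5.07, 5.73, 4.78 and 5.79 RPKM (5.34 ± 0.494). Fen1 shares 78.8% of its exon bases with the antisense gene Gm10143, listed at 0.0992 RPKM.

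The nucleotide enzymes and G1/S regulators of the list were low. This did not hold for nucleotide supply as a whole. The 8 such genes outside the list all reached 1 RPKM, with a median of 5.11 RPKM. The large ribonucleotide reductase subunit Rrm1 was at 3.12, 2.90, 2.76 and 2.64 RPKM (2.86 ± 0.207). Its partner Rrm2, the subunit that is limiting outside S phase, was at 1.054, 1.071, 1.177 and 1.093 RPKM (1.098 ± 0.0545). Thymidylate synthase Tyms was at 0.537 ± 0.0987 RPKM, and thymidine kinase Tk1 read 0.313, 0.274, 0.342 and 0.210 RPKM (0.285 ± 0.0573). Rrm1 stood 10.0-fold above Tk1. Cyclin E1 (Ccne1), a partner of Cdk2 at the entry to S phase, was at 1.43, 1.74, 2.33 and 2.01 RPKM (1.88 ± 0.383). Cyclin E2 (Ccne2) was at 0.602 ± 0.126 RPKM, with 17.4% of its exon bases shared with Ints8 on the other strand. E2f1, an activator of S phase genes, read 0.485, 0.465, 0.268 and 0.477 RPKM (0.424 ± 0.104).

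**Figure D2:**
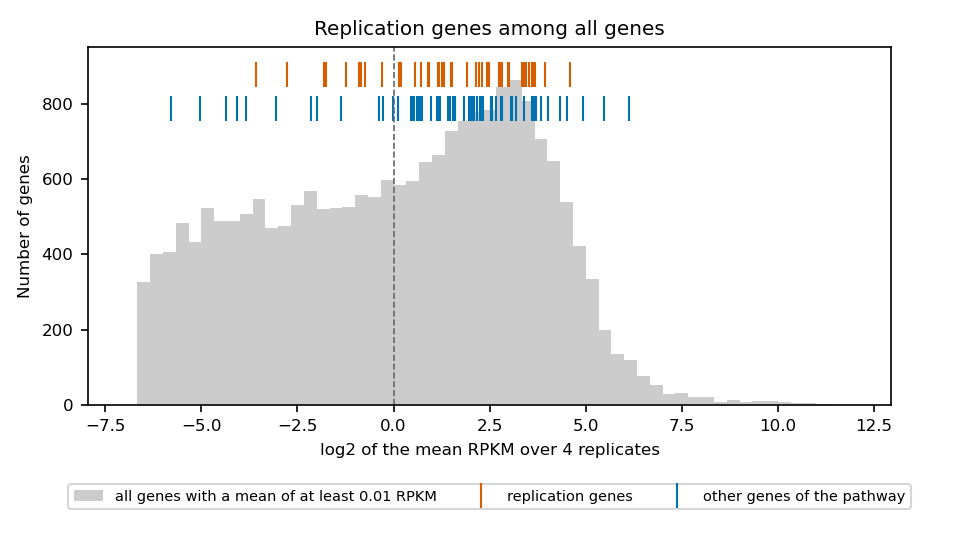
Number of genes (bars) by the log2 of the mean RPKM over 4 replicates for genes above a mean level of 0.01 RPKM, with ticks at the top for the 46 replication genes (upper row) and the 61 other genes of the pathway (lower row); the dashed line is 1 RPKM. Of the replication genes 37 lie right of the line, and of the other pathway genes 49.

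Promoters of the replication genes carried letters of the E2F consensus often. RefSeq promoter windows (GRCm38.p6, the mm10 assembly) of 250 bases before to 50 after the start were at hand for 38 of the 46, 46 windows in all since some genes have several starts. Each window was searched on both strands for the 8-letter motifs TTTCGCGC, TTTGGCGC, TTTCCCGC and TTTGCCGC, the first 2 of which can overlap on opposite strands. At least 1 window with a match was found for 14 of the 38 genes (36.8%, exact 95% interval 21.8% to 54.0%), for 2.61% of the 27025 genes of the promoter table and for 5.04% of its 7502 genes with at least 1 RPKM. Among the other pathway genes, listed further on, 14 of 48 with a window held a match (29.2%). Such a match is a description of letters, not of a bound factor.

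The stretches of up to 30 bases around the first match are shown because they set holders with high and with low levels side by side. They read 5′ to 3′ on the gene's strand in the reference genome, with the motif letters in capitals. TTTCCCGC or its reverse complement was held by 8 of the genes, TTTCGCGC by 6, TTTGGCGC by 5 and TTTGCCGC by 0.
Mcm3 (chr1:20820275-20820304, minus strand): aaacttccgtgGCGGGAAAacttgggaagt
Mcm5 (chr8:75109345-75109374, plus strand): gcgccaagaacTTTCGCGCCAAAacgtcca
Mcm6 (chr1:128359797-128359826, minus strand): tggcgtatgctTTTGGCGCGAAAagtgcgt
Mcm7 (chr5:138172030-138172059, minus strand): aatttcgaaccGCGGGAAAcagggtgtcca
Orc1 (chr4:108579416-108579445, plus strand): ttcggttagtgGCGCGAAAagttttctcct
Orc3 (chr4:34614965-34614994, minus strand): ccatgcctcccTTTCCCGCacgccccgcct
Cdc6 (chr11:98908002-98908031, plus strand): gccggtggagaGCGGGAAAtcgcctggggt
Cdt1 (chr8:122568036-122568064, plus strand): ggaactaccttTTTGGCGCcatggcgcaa
Gins3 (chr8:95633507-95633536, plus strand): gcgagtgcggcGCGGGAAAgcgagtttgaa
Pold1 (chr7:44548766-44548787, minus strand): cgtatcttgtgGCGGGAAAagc
Pold3 (chr7:100121467-100121496, minus strand): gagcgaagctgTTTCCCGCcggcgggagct
Pole2 (chr12:69228162-69228191, minus strand): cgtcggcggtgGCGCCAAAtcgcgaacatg
Rfc3 (chr5:151651200-151651229, minus strand): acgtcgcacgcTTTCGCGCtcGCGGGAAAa
Lig1 (chr7:13278841-13278870, plus strand): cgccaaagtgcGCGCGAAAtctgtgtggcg

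A match did not sort the genes by level. The holders ran from Cdc6 at 0.146 RPKM to Mcm7 at 15.5 RPKM (median 6.93 RPKM), and the 24 genes with a window and no match from Mcm10 at 0.0842 to Pcna at 23.9 RPKM (median 4.10 RPKM). Both extremes of the helicase loading pair and of the ORC (Cdt1 and Cdc6, Orc3 and Orc1) held 1 match each. The 20 matches lay between position -165 and position 39, where 0 is the first transcribed base in RefSeq. In the 150 bases before the start alone, 18.4% of the 38 genes held a match, against 1.44% of all genes of the promoter table.

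The 250 bases before the start are given for the ring genes Mcm5 and Mcm6, whose matches read as an E2F motif on both strands. TTTCGCGC shares letters with TTTGGCGC from the other strand, and the gene's own strand reads TTTCGCGC in Mcm5 and TTTGGCGC in Mcm6. In Mcm5 the shared block begins at position -153, and in Mcm6 at position -110, with a further TTTGGCGC at position -47. They cover chr8:75109259-75109508 (plus strand) and chr1:128359706-128359955 (minus strand) of GRCm38.p6.
Mcm5: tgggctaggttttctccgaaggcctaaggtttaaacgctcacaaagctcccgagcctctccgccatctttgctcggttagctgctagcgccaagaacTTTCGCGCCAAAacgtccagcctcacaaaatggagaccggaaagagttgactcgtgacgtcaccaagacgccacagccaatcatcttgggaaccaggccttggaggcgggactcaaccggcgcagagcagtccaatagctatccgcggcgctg
Mcm6: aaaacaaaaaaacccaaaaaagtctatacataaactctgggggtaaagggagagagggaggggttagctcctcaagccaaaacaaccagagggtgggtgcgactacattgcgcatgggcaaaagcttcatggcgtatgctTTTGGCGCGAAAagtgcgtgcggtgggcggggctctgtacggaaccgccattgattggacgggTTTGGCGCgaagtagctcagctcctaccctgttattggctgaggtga

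Replication genes varied between the 4 mice about as much as other genes. The coefficient of variation (SD over mean) of the 37 members with at least 1 RPKM had a median of 10.3%, and that of all 11453 such genes 11.4%. The steadiest were Rpa1 (3.05%), Mcm7 (3.16%) and Orc5 (3.61%), which read 3.741, 3.926, 3.815 and 3.601 RPKM. The least steady were Orc1 (68.3%), Gins1 (64.6%) and Gins2 (36.5%), each with a mean of 112 to 239 reads per library. Gins1 was at 0.980, 2.88, 0.841 and 1.18 RPKM, with replicate 2 alone high, and without replicate 2 its mean is under 1 RPKM and 36 members reach that level. Gins2 was at 0.687, 0.763, 0.360 and 0.402 RPKM, lower in replicates 3 and 4. The 9 members under 1 RPKM had a median of 20.98%, where the 5298 genes from 0.1 to under 1 RPKM had 45.9%. Mcm10, 1 of the 9, lay under that range, and these genes were not matched to the members by number of reads.

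The members did not follow a single library. Their median deviation from the gene mean on the log2(RPKM + 1) scale was -0.02, 0.01, -0.04 and 0.04 in replicates 1 to 4, and over all expressed genes -0.04, 0.06, -0.03 and 0.01. Replicate 2 was the highest sample for 12 of the 37 members (32.4%), and for 42.1% of all expressed genes. Replicate 4 was the highest for 11 members (29.7%), and for 20.8% of all. No test was made of these shares.

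**Figure D3:**
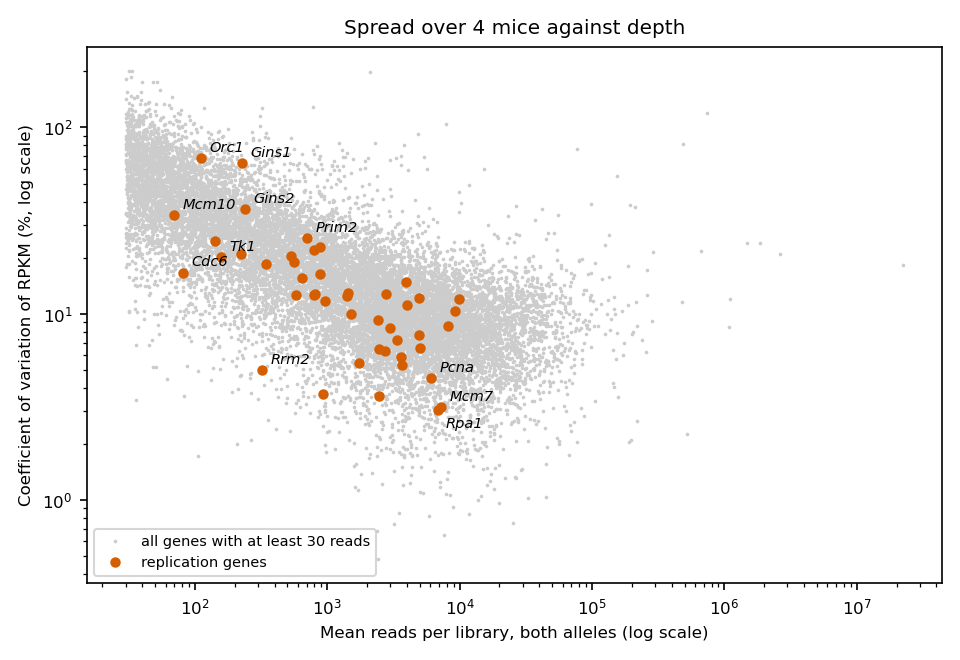
Coefficient of variation of RPKM over 4 mice (percent, log axis) against the mean reads per library (log axis) for all genes with at least 30 reads (grey) and the 46 replication genes (orange), some of them named. Orc1 (68.3%) and Gins1 (64.6%) lie high among genes of few reads, and Rpa1 (3.05%) and Mcm7 (3.16%) low.

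The 2 parental alleles can be compared within each mouse, since reads over strain variants were counted apart. For each gene the ratio of Castaneus to C57BL/6 reads was tested against 1 with edgeR's quasi-likelihood test, two-sided, with the mouse as a block and Benjamini-Hochberg adjustment over 10268 autosomal genes at a false discovery rate of 5%. Genes needed a mean of 20 allelic reads and 1 RPKM, which 35 of the 46 met. Left out were the 9 genes under 1 RPKM, Mcm6 with a mean of 13 allelic reads and Gins3 with 0, although both were well covered in the RPKM values of both alleles.

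Of the 35 tested genes 8 were called (22.9%), where 28.1% of all autosomal genes tested were called, so the replication genes were not called more often than the background. Reads from C57BL/6 were higher for 4, Pcna, Pold1, Orc5 and Pola2 (background 15.6%). Reads from Castaneus were higher for the other 4, Cdt1, Mcm5, Pold2 and Orc4 (background 12.4%). All 8 lay on the same side in 4 of 4 mice. The calls were made on these same mice, so this is no separate support, and uncalled genes such as Mcm3 and Mcm4 did so too. The largest of these differences was 1.85-fold, for Orc5. The median Castaneus share over the 35 was 49.6%, where it was 48.9% over all autosomal genes tested. Every mother was C57BL/6 and every father Castaneus, so strain and parent of origin cannot be told apart, and the part of unequal mapping of the alleles was not tested.

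Pcna gave the clearest call. Its Castaneus share was 37.7%, 36.6%, 38.0% and 36.8% in replicates 1 to 4 (37.3% ± 0.697, SD, n = 4), from a mean of 3780 allelic reads, and no sample came near an equal share. The log2 ratio of Castaneus to C57BL/6 was -0.73 ± 0.0738 (SE), 1.66-fold higher from C57BL/6 (edgeR adjusted p = 2.81e-05). The gene lies at chr2:132249162-132253314 (mm10, minus strand).

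Pold1, the catalytic subunit of polymerase δ (chr7:44532746-44548849, minus strand), had Castaneus shares of 33.0%, 39.7%, 36.9% and 42.0% (37.9% ± 3.90). Its reads were 1.62-fold higher from C57BL/6 (log2 ratio -0.69 ± 0.114, edgeR adjusted p = 0.000988). Pold2, its accessory partner (chr11:5872180-5878292, minus strand), leaned the other way, with Castaneus shares of 60.32%, 57.68%, 57.89% and 57.04% (58.2% ± 1.44) and a log2 ratio of 0.50 ± 0.149 (edgeR adjusted p = 0.0272). The Pold2 call was lost without the block (adjusted p = 0.149) and without replicate 1 (0.124), 3 (0.0641) or 4 (0.0968). The Castaneus shares of Pold1 and Pold2 did not overlap, and Pold3 spanned both sides at 51.7% ± 6.69.

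The loading factor Cdt1 (chr8:122568015-122573554, plus strand) had Castaneus shares of 58.5%, 59.1%, 60.7% and 59.0% (59.3% ± 0.960) from a mean of 3204 allelic reads. Its reads were 1.48-fold higher from Castaneus (log2 ratio 0.57 ± 0.0803, edgeR adjusted p = 0.000331), with all 4 mice close together. Mcm5 (chr8:75109569-75128439, plus strand) was the only ring gene called, at 56.5%, 53.1%, 59.9% and 57.5% Castaneus (56.8% ± 2.80), a log2 ratio of 0.42 ± 0.110 (edgeR adjusted p = 0.0155). Without replicate 1, 3 or 4 the Mcm5 call was lost, with adjusted p of 0.0553, 0.0801 and 0.0904.

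Of the other ring genes, Mcm3 was at 53.4%, 51.8%, 52.9% and 52.4% Castaneus (52.6% ± 0.690), Mcm4 at 54.4% ± 1.55, Mcm2 at 52.3% ± 3.67 and Mcm7 at 47.3% ± 4.16, and none of them passed. Mcm4 was called by DESeq2's Wald test alone (adjusted p = 0.0281). Mcm7 read 45.6%, 53.3%, 43.8% and 46.3%, with replicate 2 apart, and it was called higher from C57BL/6 only without that replicate (adjusted p = 0.0324). In replicate 2 reads were also more clumped. Of autosomal genes with 20 to 39 allelic reads, 84.2% were read from 1 allele only there, against 13.6% to 45.2% in the other libraries, and the part of this in the shares of replicate 2 was not tested.

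In the ORC, Orc5 (chr5:22486485-22550429, minus strand) had the lowest Castaneus share of all 35 genes, at 35.2%, 39.5%, 34.7% and 29.8% (34.8% ± 3.96). Its reads were 1.85-fold higher from C57BL/6 (log2 ratio -0.89 ± 0.167, edgeR adjusted p = 0.00234). Orc4 (chr2:48902824-48950277, minus strand) was at 54.42%, 53.83%, 51.97% and 53.42% Castaneus (53.4% ± 1.04), a small difference with a log2 ratio of 0.22 ± 0.0655 (edgeR adjusted p = 0.0280). The Orc4 call was lost without the block (adjusted p = 0.234) and without replicate 1 (0.0973), 3 (0.0595) or 4 (0.110). Orc2 (52.6% ± 3.81), Orc3 (49.4% ± 6.53) and Orc6 (52.2% ± 6.16) did not pass.

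Pola2, which tethers the primase to polymerase α (chr19:5940542-5964202, minus strand), was at 44.6%, 34.0%, 41.2% and 41.3% Castaneus (40.3% ± 4.47), 1.46-fold higher from C57BL/6 (log2 ratio -0.55 ± 0.117, edgeR adjusted p = 0.00488). Pola1, the catalytic subunit of the same polymerase, lies on the X chromosome (chrX:93304767-93632155, minus strand). It was at 1.58 ± 0.226 RPKM, and its Castaneus reads numbered 0 of 523, 0 of 315, 2 of 346 and 0 of 431, a pooled share of 0.124%. A count of 0 allows a share of up to 0.574%, 0.952% and 0.696% in replicates 1, 2 and 4. In these mice the X of the C57BL/6 mother can carry the Xist deletion, and an X without Xist is known to stay active. Pola1 was not part of the autosomal test.

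The 27 genes that were tested and not called had mean Castaneus shares from 38.9% (Ccne1) to 56.1% (Rpa1), and they had fewer allelic reads than the called genes, a median of 807 per library against 2224. Rpa1, at 54.1%, 64.8%, 50.3% and 55.2%, missed the threshold (edgeR adjusted p = 0.0602) and passed it with TMM factors (0.0369), with DESeq2 size factors (0.0385), by DESeq2's Wald test (0.0192) and without replicate 3 (0.0419). Ccne1 read 27.4%, 54.8%, 41.5% and 31.8% from a mean of 275 allelic reads, and was called only without replicate 2 (adjusted p = 0.0401). Among genes under 1 RPKM the shares moved widely between mice, from 13.3% to 63.8% for Cdc6 in 3 mice with 0 of 40 reads in replicate 3, which allows up to 7.50%. Counting intervals and limits cover counting error only.

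**Figure D4:**
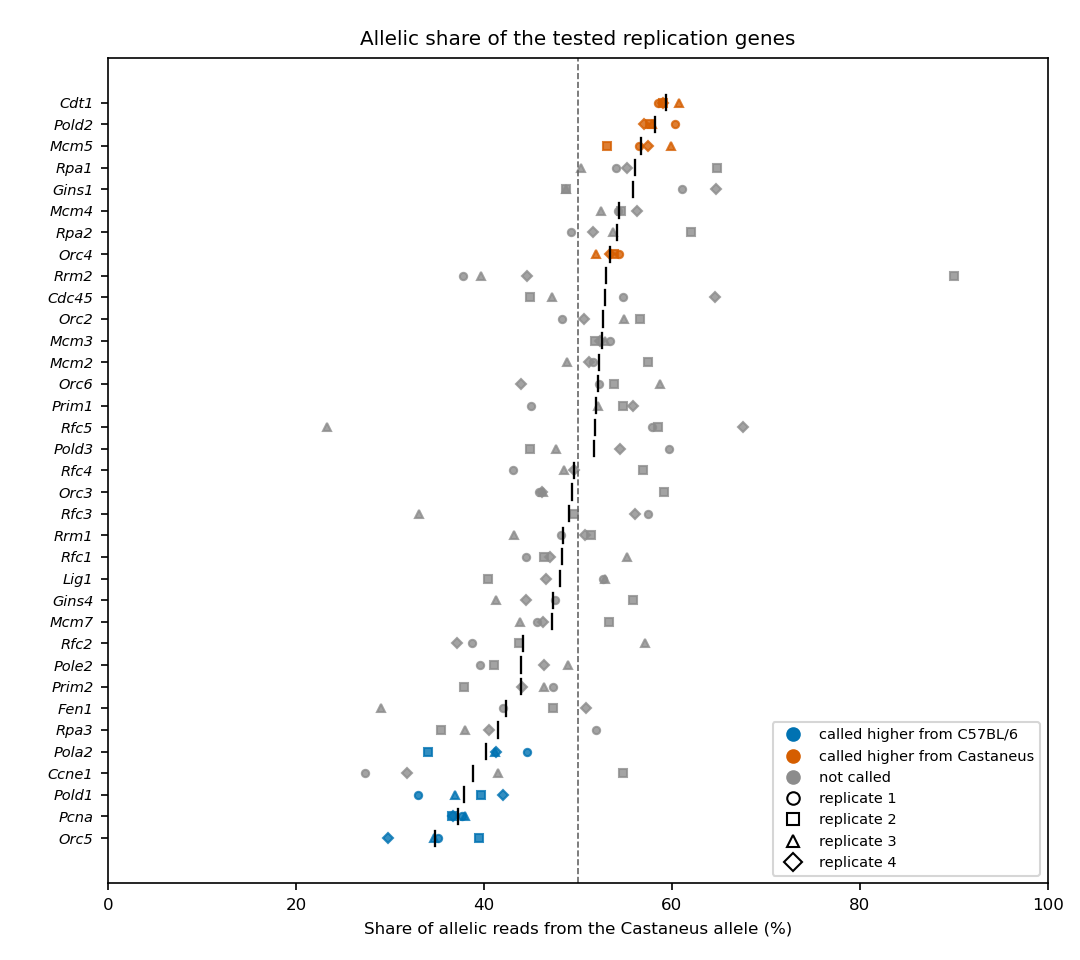
Share of allelic reads from the Castaneus allele (percent) in each of 4 replicates for the 35 tested replication genes, ordered by the mean (black bar); blue genes were called higher from C57BL/6, orange genes higher from Castaneus, grey genes were not called, and the dashed line is 50%. The 4 samples of Pcna (36.6% to 38.0%) and of Cdt1 (58.5% to 60.7%) lie close together on opposite sides.

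A list of 61 other genes of the pathway gave the setting. Of these 49 reached 1 RPKM, with a median of 3.03 RPKM over the 61. By role, this was so for 11 of 12 genes of origin firing and licensing control, 4 of 4 other polymerase subunits, 8 of 8 genes of nucleotide supply, 7 of 7 chromatin factors at the fork, 9 of 12 E2F and RB family genes, 4 of 6 Okazaki fragment and topoisomerase genes, 2 of 4 other clamp loader genes and 4 of 8 fork and checkpoint genes. The highest was Shmt2, the mitochondrial serine hydroxymethyltransferase of the folate cycle, at 70.3 ± 8.61 RPKM, above Pcna. It was followed by Pold4, the small polymerase δ subunit (44.3 ± 2.75), E2f4, an E2F known for repression in resting cells (30.2 ± 0.914), Chtf8, a part of an alternative clamp loader (22.7 ± 1.99), and Samhd1, which breaks down deoxynucleotides (19.9 ± 1.44). The lowest were the late E2F repressor E2f7 (0.0179 ± 0.0145), Dscc1 of the same alternative loader (0.0304 ± 0.0364) and the checkpoint mediator Clspn (0.0489 ± 0.0259). Thus Chtf8 and Dscc1, partners in 1 complex, stood at opposite ends, as Cdt1 and Cdc6 did.

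Of 48 other pathway genes tested for the alleles 13 were called (27.1%, background 28.1%), 7 higher from C57BL/6 and 6 from Castaneus. Pold4 had the highest Castaneus share, 77.2% to 82.9% in the 4 mice (80.3% ± 2.39), 4.17-fold higher from Castaneus (log2 ratio 2.06 ± 0.116, edgeR adjusted p = 2.66e-07). Together with Pold1, Pold2 and Pold3, the 4 subunit genes of polymerase δ thus had mean Castaneus shares of 37.9%, 58.2%, 51.7% and 80.3%. Gmnn, the inhibitor of Cdt1, lay on the other side, at 19.1% to 27.0% Castaneus (22.4% ± 3.72), 3.44-fold higher from C57BL/6 (log2 ratio -1.78 ± 0.294, edgeR adjusted p = 0.000973), while Cdt1 itself was higher from Castaneus. Also higher from C57BL/6 were Samhd1 (40.2% ± 1.33 Castaneus), the polymerase ε subunit Pole4 (32.5% ± 5.14), the origin firing factor Mtbp (38.7% ± 4.06), the ribonuclease H2 catalytic subunit Rnaseh2a (34.8% ± 2.90), Shmt2 (46.5% ± 1.12) and the RB relative Rbl2 (46.3% ± 1.71). Higher from Castaneus were the E2F partner Tfdp1 (63.9% ± 5.33), E2f2 (62.9% ± 6.19), the chromatin assembly subunit Chaf1b (62.8% ± 2.96), Mcm8 (66.5% ± 9.08) and Rnaseh2b (56.2% ± 3.33). Rnaseh2a and Rnaseh2b were thus called on opposite sides, and the remaining ribonuclease H2 gene, Rnaseh2c, was at 50.2% ± 7.11 Castaneus and not called (edgeR adjusted p = 0.95). Calls of Shmt2 and Rbl2 held in 5 and 6 of the 12 alternatives, and were lost without the block (adjusted p = 0.399 and 0.168) and with TMM factors (0.103 and 0.108). Shmt2 also lost its call without replicate 1 (0.0820), 2 (0.0606), 3 (0.109) or 4 (0.0539), and Rbl2 without replicate 1 (0.160), 3 (0.133) or 4 (0.0940). E2f2 was not called without replicate 3 (0.0547) or 4 (0.0656), Chaf1b without replicate 1 (0.0792) or 4 (0.0769), Mcm8 without replicate 1 (0.0620) or 3 (0.0824), and Rnaseh2b without replicate 2 (0.0700), 3 (0.126) or 4 (0.135). The calls of Pold4, Gmnn, Samhd1, Pole4, Mtbp, Rnaseh2a and Tfdp1 held in all 12.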

How the data were processed

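The authors deposited 2 kinds of values for 4 libraries, per the file headers: raw whole-number counts of each gene's reads on either parental allele, and RPKM values of the alleles combined. The submitters' processing notes name STAR 2.7.1a, featureCounts and mm10. Allele assignment, removal of duplicates, use of strand in counting and the total that scaled the RPKM values are not stated there or in the labels. Ribosomal RNA was depleted from total RNA and the kit was stranded, per the labels' protocols.

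Gene lengths and positions came from GENCODE M21, which held 49412 of the gene IDs. With exon lengths, 88.3% to 89.1% of RPKM values under 2000 reads gave whole reads within 0.02, which set the library totals. RPKM levels are described without a test. The allelic test used glmQLFit and glmQLFTest of edgeR 4.0.16 under R 4.3.3, with an allele term and a replicate block, since the pair of alleles comes from the same mouse. Autosomal totals of each allele served as library sizes. The SE of a log2 ratio was worked out from the test, as its absolute value over the square root of the F statistic. DESeq2 1.42.0 was an alternative, as were other size factors, filters, no replicate block and leaving out each replicate. Exact binomial intervals are Clopper-Pearson at 95%. The largest half-width at 1000 or more allelic reads was 3.10 percentage points. The test was tried on simulated counts. It called 70 of 100 genes changed 2-fold, 34 of 100 changed 1.5-fold and 1 of 10068 unchanged genes. The simulated counts followed a trend of dispersion with level. They did not model gene-specific dispersion, reads clumped on 1 allele or unequal mapping, so the rates in the real counts may differ. A gene not called can therefore still differ between the alleles. Intervals came from scipy 1.17.1, tables from pandas 2.3.3 and numpy 2.4.6, and plots from matplotlib 3.10.9, under Python 3.11.15.

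The members and lists were chosen with earlier results of these data known. Full values are given for members called in the allelic test, the highest and lowest of each role group, all of groups under 3, the MCM ring, and the 3 most and least variable. Of the other pathway genes, those called, the 5 highest, the 3 lowest and Pola1 are named. Other members are given by mean and SD.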

Additional observations from a re-analysis of the deposited data

Results flagged for a closer look

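In 125 sets of 4 values (RPKM or Castaneus share of the members and of the named pathway genes, 65 genes), 12 (9.6%) had 1 sample whose gap to the next, as a share of the whole range, exceeded Dixon's 95% critical value. Chance gives about 1 in 20 for independent sets of normal values. These sets share the same 4 libraries and some shares rest on few reads, so that rate is only a rough guide. The outlying sample was replicate 1 in 5 sets, replicate 2 in 5, replicate 3 in 2 and replicate 4 in 0.

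Replicate 2 stood high for Gins1 (2.88 RPKM, the others 0.841 to 1.18), for the clamp loader gene Rfc4 (5.87 RPKM, the others 4.55 to 4.68) and for 3 Castaneus shares. These were Orc3 (59.2%, the others 45.8% to 46.3%), Rrm2 (90.1% of 131 reads, the others 37.8% to 44.6%) and Ccne2 (57.04% of 135 reads, the others 30.9% to 34.4%). This is also the library in which most thinly covered genes were read from 1 allele, and the part of that in these values was not tested.

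Replicate 1 stood low for Orc4 (10.3 RPKM, the others 13.1 to 13.5), for Rnaseh2b (2.66 RPKM, the others 3.12 to 3.20) and for the Castaneus share of Tk1 (24.1% of 158 reads, the others 64.7% to 72.1%). It stood high for Pold2 (13.3 RPKM, the others 11.6 to 11.8) and for the Castaneus share of Samhd1 (42.2%, the others 39.3% to 39.6%). Replicate 3 stood low for E2f1 (0.268 RPKM, the others 0.465 to 0.485) and alone had Castaneus reads of Pola1 (0.578%, the others 0).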

How the results depend on the processing

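Among members called under at least 1 setting and the called pathway genes, no allelic ratio reversed its direction under an alternative. The direction of the other members was not compared between settings. The replicate block mattered for the alleles: without a replicate block 6 members were called in place of 8, and 2 in place of 4 were higher from Castaneus, while the C57BL/6-higher count stayed 4. Leaving out 1 replicate each gave 5 to 10 called members and 1 to 4 higher from Castaneus, with 5 called without replicate 1 and without replicate 4. Over all autosomal genes 2883 were called, 1960 to 3058 without 1 replicate. The share of calls higher from C57BL/6 was 55.7%, but 47.7% with TMM factors and 48.5% with DESeq2 size factors. The median log2 ratio over all genes tested was -0.041, and 0.008 and 0.002 with those factors. The lean of the background towards C57BL/6 thus depended on the size factors. Pcna, Cdt1, Pold1, Orc5 and Pola2 were called under all 12 alternatives. The median percentile of the members' level, 35.3 among genes with at least 1 RPKM, was 34.2 from medians over replicates, 55.7 among genes with at least 0.1 RPKM and 85.1 among all genes, by construction of those larger references. The median SD of log2(RPKM + 1), 0.12, was 0.1427 with a pseudocount of 0.1, and 0.1009 to 0.1113 without 1 replicate. The share of genes with a motif, 36.8%, was 18.4% in the 150 bases before the start. Few allelic reads left Mcm6 and Gins3 out of the test, and the 1 RPKM minimum left out 9 others, of which Pole had a mean of 459.8 allelic reads and Tyms 232; without that minimum 8 members were called. Of 371 comparisons of a value with an alternative, 316 kept their call or value, 33 lost a call, 7 gained one and 15 moved.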
